A study of Mus musculus with 12 samples.

Results

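The comparison described here sets Cdk8 knockout cells carrying H-RasG12V against wild-type cells carrying the same oncogene. It rests on 6 of the 12 libraries of the series: 3 titled as Cdk8 knockout with RasG12V and 3 titled as wild type with RasG12V, chosen by their titles alone and compared across all genes. All libraries come from the BMEL line, bipotential mouse embryonic liver cells, which was isolated from a mouse with floxed Cdk8 (CDK8 F/F), so every group shares that origin. Cells were growing exponentially on collagen in RPMI medium with serum, insulin, IGFII and EGF, with no other treatment. The genotype is wild type and the transformation H-RasG12V in one group (RasG12V); the other is Cdk8 -/- with H-RasG12V (the knockout). The remaining 6 libraries are untransformed wild-type cells and Cdk19 -/- cells with H-RasG12V, 3 of each. As far as the labels state it, the comparison asks which transcripts change when Ras-transformed liver progenitors lack Cdk8. The labels do not say whether the 3 libraries of a group are separate cultures or whether each line is 1 clone, so the p-values measure only the spread between these libraries, which may be technical.

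Cdk8 is a cyclin-dependent kinase that, with cyclin C (Ccnc), Med12 and Med13, makes up a detachable kinase module of Mediator, a coactivator through which DNA-bound factors reach RNA polymerase II. The module binds Mediator reversibly, can hold back or assist transcription depending on the gene, and phosphorylates transcription factors such as SMADs. Cdk19 is a close paralog that can take the place of Cdk8 in the module. Activated Ras signals through RAF, MEK and ERK to growth and immediate early genes, and Ras GTPase-activating proteins switch it off.

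Each of the 6 libraries held between 24823560 and 36879661 reads counted on genes. Levels are given as CPM, counts relative to library size after TMM scaling, which corrects for differences in library composition. RasG12V replicate 3 stood apart: on the second principal component, which held 12% of the variance, it lay at -53.2 while the other 5 libraries lay between -3.42 and 13.1. Its counts differed from those of RasG12V replicates 1 and 2 by a mean chi-square per gene of 92.6 and 84.6, against 4.56 between replicates 1 and 2 and 9.64 to 17.2 between knockout libraries. It also had the highest share of mitochondrial counts of the 6 libraries (1.92%, against 1.29% to 1.5%) and the highest share of ribosomal RNA counts (0.134%, against 0.0503% to 0.0789%). Untransformed replicate 3 differed from its group by a chi-square of 55.0 and 56.0. The main results are therefore given with and without these libraries, and other genes from the fit without both. With all 12 libraries no gene passed edgeR's test, and several of those other genes had smaller log2 fold changes. Those of Slc9a3r2, Spon2, Anxa8, Ifi27, Vsig1, Cdh17 and Scd1 were 0.05, 0.07, 0.10, 0.10, 0.14, 0.17 and 0.23, and that of Lgals2 changed sign, to -0.08. Those of Adora1, Itgb3, S100a4, F3, Tmem151a and Ppp2r2b were 0.57, 0.53, 0.46, 0.47, 0.38 and 0.62. Among genes lower in the knockout, Htra1, Itgav, Cblb, Chml, Phip, Resf1 and Cpeb4 had -0.13, -0.16, -0.25, -0.27, -0.29, -0.29 and -0.31. The part of that library's RNA quality in the results was not tested.

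The targeted gene was lower in the knockout, and its transcript was still counted in every knockout library. Cdk8 stood at 56.3, 56.4 and 50.9 CPM in RasG12V replicates 1 to 3 and at 41.4, 43.8 and 43.3 CPM in the knockout. All 3 knockout libraries lay below all 3 RasG12V libraries, and about as low as the untransformed cells (49.6, 45.7 and 43.7 CPM). The log2 fold change was -0.35 (SE 0.08), with an adjusted p of 0.415 in edgeR's quasi-likelihood test over all 12 libraries and an unadjusted p of 6.36e-04. The counts cover the whole gene and do not test the deleted part.

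The partners of Cdk8 in the kinase module did not pass the test in any of the 3 fits described below. Cdk19 stood at 64.7, 67.2 and 93.6 CPM in RasG12V and at 58.9, 62.9 and 69.9 CPM in the knockout, with RasG12V replicate 3 above all other libraries of both groups. Ccnc, Med12 and Med13 had log2 fold changes of -0.05, -0.07 and -0.11 with all 12 libraries, with standard errors of 0.09, 0.07 and 0.13. With 10 libraries they were -0.01, -0.08 and -0.25, with standard errors of 0.08, 0.07 and 0.09. Med13 stood at 184, 198 and 134 CPM in RasG12V and at 165, 147 and 167 CPM in the knockout, below RasG12V replicates 1 and 2 and above replicate 3, with an edgeR adjusted p of 0.148 with 10 libraries. Of the 26 genes of core Mediator, 0 were called by edgeR in either direction with 10 libraries, with 1 higher and 2 lower at an unadjusted p under 0.05 and 1 lower by DESeq2. Over all genes in that fit edgeR called 1.59%, and 18.9% had an unadjusted p under 0.05. For 26 genes 0 calls is near that rate, so nothing is read from it.

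The oncogene was expressed in both groups. Hras, whose count cannot tell the endogenous gene from the introduced one, stood at 510, 537 and 313 CPM in RasG12V and at 456, 444 and 452 CPM in the knockout, against 57.5, 51.7 and 40.7 CPM in untransformed cells. The knockout libraries lay below RasG12V replicates 1 and 2 and above replicate 3. The log2 fold change of Hras was -0.01 (SE 0.17) with all 12 libraries and -0.21 (SE 0.06, adjusted p = 0.0845 in edgeR) without both libraries that stand apart.

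Across all genes, edgeR called no transcript between the knockout and RasG12V when all 12 libraries entered the fit. Of 14283 genes tested, 0 were higher and 0 lower (0%) at an adjusted p under 0.05 in edgeR's quasi-likelihood test, with 871 (6.1%) at an unadjusted p under 0.05. DESeq2 called 21 higher and 9 lower on the same genes, and limma-voom called 0. In 908 genes (6.36%) all knockout libraries lay above all RasG12V libraries, and in 883 (6.18%) below. The lowest adjusted p was 0.212, shared by Nat8l, Xk, Epb41l3, Asb4 and the pseudogene Gm13456.

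Leaving out RasG12V replicate 3 alone brought 3 calls, all higher in the knockout (0.0206% of 14571 genes; 1574 genes, 10.8%, at an unadjusted p under 0.05): Lgals4, Ppp2r2b and Anxa13. Leaving out untransformed replicate 3 as well, a library of neither group compared that enters the shared estimate of the spread and the filter on low counts, brought 171 genes higher (1.18%) and 60 lower (0.414%) of 14493. In this fit of 10 libraries 2736 genes (18.9%) had an unadjusted p under 0.05. The changes were small: the median size was 0.58 on the log2 scale among the higher genes and 0.33 among the lower ones, and 35 genes (0.241%) reached a difference of 1. Protein-coding genes made up 165 of the higher and 54 of the lower. RasG12V then holds 2 libraries that agree closely, and leaving out either of them cut the calls to 16 or 21 higher and 3 or 1 lower, with the lone RasG12V library assumed to vary like the other groups. Leaving out a knockout library gave 275 higher and 90 lower without replicate 1, 60 and 17 without replicate 2, and 82 and 40 without replicate 3.

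The calls named below were not equally firm. Every alternative to the fit of 10 libraries also left out RasG12V replicate 3, so firmness was judged without that library. Passing all of them does not mean that a call holds with it. With all 12 libraries the log2 fold change of Lgals4 was -0.62 and that of Anxa13 was 0.14. Of 71 named genes called with 10 libraries, 12 passed under all 15 alternatives in processing: Akap12, Anxa10, Anxa13, Bnc1, Ddc, Il1rn, Lgals4, Nat8l, Ppp2r2b, Sprr2h, Ugt1a7c and Upk1b. Another 11 passed in 8 or fewer, namely Asb4, Cblb, Cdh17, Cdx2, Fdft1, Hmgcs1, Ifi27, Itgav, Rasa1, S100a4 and Slc9a3r2. Leaving out RasG12V replicate 1 ended 56 of the 71 calls, RasG12V replicate 2 ended 53 and knockout replicate 2 ended 29.

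**Figure D1:**
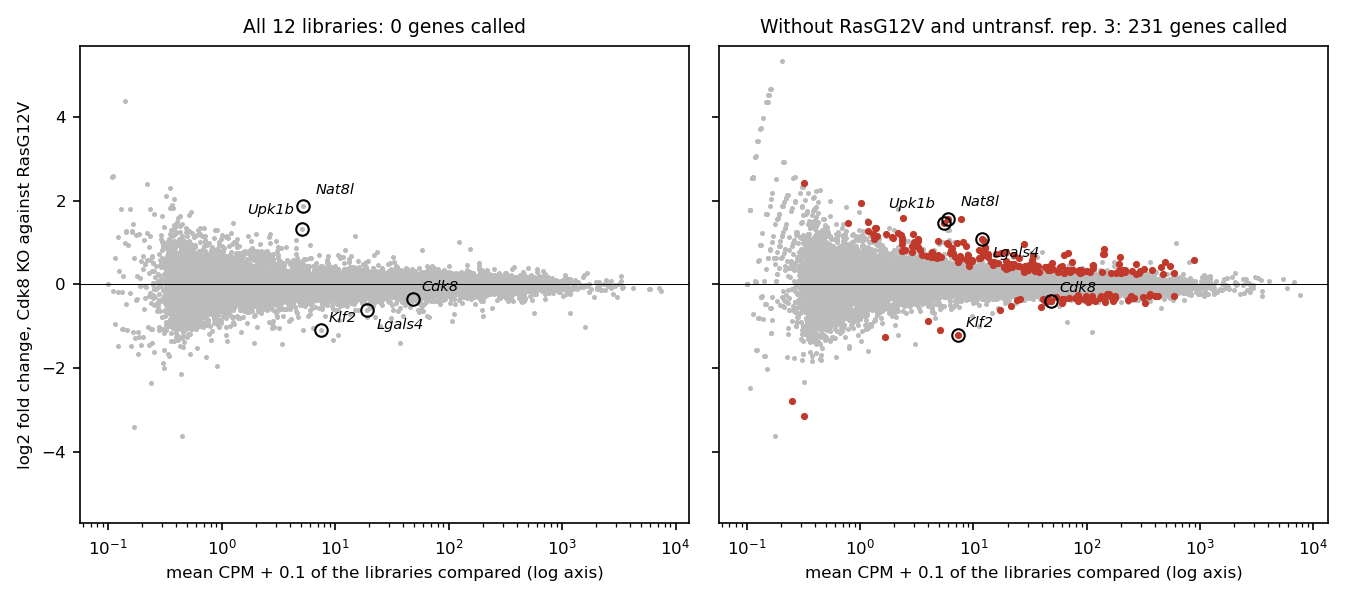
Log2 fold change of the Cdk8 knockout against RasG12V (vertical axis) against mean CPM plus 0.1 on a log axis, 1 point per gene, for the fit of all 12 libraries (left) and of 10 libraries (right). Red points pass an adjusted p of 0.05 in edgeR: 0 on the left and 231 (1.59%) on the right. Lgals4 changes from -0.62 to 1.10 between the panels while Nat8l, Upk1b, Klf2 and Cdk8 keep their sign.

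RasG12V replicate 3 had no part in choosing the 231 genes, and its values are set beside them. Among the 171 higher genes it lay above RasG12V replicates 1 and 2 in 143 (83.6%), and among the 60 lower genes below them in 49 (81.7%). The 231 genes were chosen where replicates 1 and 2 lay away from the knockout, a choice that by itself places another library of that group nearer the knockout, so these shares are a description and nothing is read from them. It passed beyond all 3 knockout libraries in 82 of the 171 (48.0%) and in 24 of the 60 (40%). It stayed below all 3 knockout libraries in 61 of the 171 (35.7%), and above them in 25 of the 60 (41.7%). Over all 14493 genes tested, it lay above all 3 knockout libraries in 37.6% and below them in 37.0%. The shares of 35.7%, 40% and 41.7% were thus near those of all genes. Over the same genes it lay above replicates 1 and 2 in 43.5% and below them in 43.9%. With all 12 libraries 63 of the 171 and 29 of the 60 had an unadjusted p under 0.05, and 21 of the 171 changed sign. The named genes below are therefore given as those apart from all 3 RasG12V libraries and those apart from replicates 1 and 2 only. All 171 and all 60 called genes were apart from replicates 1 and 2. Separation from all 3 libraries was a condition for naming part of the genes. Where stated below, separation thus describes how genes were grouped and does not make a call firmer.

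Promoter windows are shown for Cdk8 and for 3 genes whose knockout libraries lay apart from all 3 RasG12V libraries: Klf2, with the largest fall among called genes of at least 5 CPM, and Nt5e and Sprr2h, which also differed from the Cdk19 knockout. The sequences are from RefSeq on GRCm38.p6 and run from 250 bases before to 50 bases after the gene's start in RefSeq. They lie on the plus strand, at chr5:146231000-146231299, chr8:72318812-72319111, chr9:88327359-88327658 and chr3:92385435-92385734. GENCODE places the start of Nt5e earlier, at base 88327197, so the whole Nt5e window lies inside the gene as GENCODE draws it. Capitals mark matches, on either strand, to 5 motifs. The AP-1 motif was searched as TGANTCA and the TEAD motif as GGAATG. The TATA box was searched as TATAAA, the ETS motif as CCGGAAG and the GC box as GGGCGG.
Cdk8: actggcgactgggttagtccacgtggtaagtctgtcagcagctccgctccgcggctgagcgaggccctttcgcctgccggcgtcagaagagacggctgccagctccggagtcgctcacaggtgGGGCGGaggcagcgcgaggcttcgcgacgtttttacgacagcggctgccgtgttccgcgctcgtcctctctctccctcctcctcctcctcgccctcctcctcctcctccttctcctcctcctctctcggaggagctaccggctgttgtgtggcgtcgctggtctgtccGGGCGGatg
Klf2: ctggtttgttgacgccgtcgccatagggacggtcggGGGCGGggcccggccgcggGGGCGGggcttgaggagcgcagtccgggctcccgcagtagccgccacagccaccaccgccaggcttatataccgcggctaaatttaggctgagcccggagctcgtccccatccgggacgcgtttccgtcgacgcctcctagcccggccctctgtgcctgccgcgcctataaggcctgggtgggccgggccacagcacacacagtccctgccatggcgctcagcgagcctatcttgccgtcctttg
Nt5e: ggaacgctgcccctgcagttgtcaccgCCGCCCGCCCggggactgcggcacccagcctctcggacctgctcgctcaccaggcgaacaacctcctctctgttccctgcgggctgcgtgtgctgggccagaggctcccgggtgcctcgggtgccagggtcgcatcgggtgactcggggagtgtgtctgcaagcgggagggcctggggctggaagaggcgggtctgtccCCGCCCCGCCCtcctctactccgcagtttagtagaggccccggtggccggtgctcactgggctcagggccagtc
Sprr2h: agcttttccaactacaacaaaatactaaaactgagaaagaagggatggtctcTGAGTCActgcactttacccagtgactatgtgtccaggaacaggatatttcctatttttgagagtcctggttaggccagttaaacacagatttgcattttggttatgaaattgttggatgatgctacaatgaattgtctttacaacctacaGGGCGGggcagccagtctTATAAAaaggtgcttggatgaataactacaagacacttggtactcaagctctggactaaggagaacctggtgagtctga
Cdk8 and Klf2 each hold 2 GC boxes and Nt5e holds 4, which overlap in pairs. Sprr2h alone of the 4 holds an AP-1 motif, 198 bases before the start, and a TATA box 29 bases before it, with 1 GC box between them. Of 32841 promoters of this length, 35.7% hold a GC box, 7.81% the AP-1 motif, 13.6% the TATA box, 14.7% the TEAD motif and 8.86% the ETS motif. GC content was 66.7% for Cdk8, 69.3% for Klf2, 71% for Nt5e and 41.3% for Sprr2h. A match describes the letters and does not show binding.

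Among the genes called with 10 libraries and lower in the knockout than in all 3 RasG12V libraries, Klf2 had the largest fold change of those with at least 5 CPM in RasG12V. Klf2, a zinc finger transcription factor and immediate early gene, stood at 12.3, 9.45 and 8.23 CPM in RasG12V and at 5.06, 4.83 and 4.20 CPM in the knockout. The groups did not overlap, and the untransformed cells lay far lower, at 0.426 to 0.928 CPM. The log2 difference of Klf2 from RasG12V was -1.09 (SE 0.22, adjusted p = 0.415 in edgeR) with all 12 libraries and -1.21 (SE 0.18, adjusted p = 0.00263) with 10. Cdk8 itself fell by 0.39 on the log2 scale in the latter fit (SE 0.07, adjusted p = 0.00659).

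Rasa1, the Ras GTPase-activating protein p120, was called lower by edgeR in the fit of 10 libraries, 1 of 24 Ras genes and regulators, of which DESeq2 called 1 higher and 2 lower. It stood at 93.0, 90.9 and 95.6 CPM in RasG12V and at 75.5, 74.6 and 80.1 CPM in the knockout. The knockout libraries lay below every RasG12V library, between them and the untransformed cells (63.1 to 70.7 CPM). The log2 fold change was -0.28 (SE 0.07) with all 12 libraries and -0.26 (SE 0.06, adjusted p = 0.0429 in edgeR) with 10, a call kept in 7 of 15 alternatives.

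Has3, a hyaluronan synthase, stood at 24.4, 27.4 and 20.8 CPM in RasG12V and at 17.9, 16.8 and 19.8 CPM in the knockout. Its lowest RasG12V library, replicate 3, lay just above the highest knockout library. Adgra2, an adhesion G protein-coupled receptor, held at 53, 54.6 and 54.0 CPM in RasG12V and at 43.6, 38.7 and 40.5 CPM in the knockout. Here RasG12V replicate 3 sat with its group. Aldh1a1, a retinaldehyde dehydrogenase, stood at 380, 401 and 345 CPM against 287, 306 and 269 CPM, again without overlap. The log2 fold changes of Has3, Adgra2 and Aldh1a1 in the fit of 10 libraries were -0.50, -0.39 and -0.44, with edgeR adjusted p of 0.0122, 0.00910 and 0.00124. With all 12 libraries they were -0.41, -0.40 and -0.39, with unadjusted p of 0.00771, 0.0147 and 0.0489.

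In Sox9 and Atf5 RasG12V replicate 3 lay far above the rest of its group, away from the knockout. Sox9, a transcription factor of biliary progenitors, stood at 56.3, 55.8 and 90.7 CPM in RasG12V and at 41.3, 42.8 and 44.3 CPM in the knockout. Atf5, a basic leucine zipper factor of the stress response, stood at 29.2, 29.5 and 60.4 CPM against 22.9, 23.8 and 21.7 CPM. In both genes replicate 3 was the highest of the 6 libraries, and the fold change was larger with it (-0.66 for Sox9 and -0.80 for Atf5) than without it (-0.38 and -0.36; edgeR adjusted p of 0.0110 and 0.0305). Cflar, an inhibitor of death receptor signalling, Cblb, a ubiquitin ligase, Agtpbp1, a tubulin deglutamylase, Resf1 and Chml, a Rab escort protein, fell by 0.41, 0.31, 0.36, 0.33 and 0.32 on the log2 scale in the fit of 10 libraries. Their knockout libraries lay below all 3 RasG12V libraries.

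Among the genes called with 10 libraries and higher in the knockout than in all 3 RasG12V libraries, Nat8l and Upk1b rose most of those with at least 5 CPM in the knockout. Nat8l, the enzyme that makes N-acetylaspartate, stood at 2.84, 2.54 and 1.27 CPM in RasG12V and at 9.76, 7.30 and 6.94 CPM in the knockout. Upk1b, a uroplakin of the urothelial surface, stood at 2.88, 2.33 and 3.35 CPM against 5.94, 8.82 and 6.88 CPM. In both genes the lowest knockout library was well above the highest RasG12V library. Nat8l had a log2 fold change of 1.86 (SE 0.31, adjusted p = 0.212 in edgeR) with all 12 libraries and 1.57 (SE 0.20, adjusted p = 3.42e-04) with 10. Upk1b had 1.33 (SE 0.31, adjusted p = 0.515) and 1.47 (SE 0.19, adjusted p = 3.42e-04).

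Sprr2h, Nt5e and Bnc1 were also apart from all 3 RasG12V libraries. Sprr2h, a small proline-rich protein of the cornified envelope, stood at 44.0, 47.4 and 35.6 CPM in RasG12V and at 73.0, 68.3 and 81.8 CPM in the knockout. Sprr2h differed by 0.81 on the log2 scale with all 12 libraries (SE 0.18, edgeR adjusted p = 0.415) and by 0.71 (SE 0.08, adjusted p = 8.59e-05) with 10. Nt5e, which encodes CD73, the surface enzyme that makes adenosine from AMP, stood at 13.4, 14.1 and 19.5 CPM against 20.3, 26.0 and 23.3 CPM. Its RasG12V replicate 3 came within a small margin of the lowest knockout library. With 10 libraries Nt5e rose by 0.76 (log2; SE 0.12, adjusted p = 0.00346), and with all 12 the difference was 0.56 (SE 0.16, adjusted p = 0.641). Bnc1, a zinc finger protein of keratinocytes, stood at 7.18, 8.10 and 10.0 CPM against 13.6, 13 and 13.4 CPM, with a log2 fold change of 0.66 with all 12 libraries (adjusted p = 0.546) and 0.81 with 10 (SE 0.10, adjusted p = 3.42e-04).

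In another set of rises RasG12V replicate 3 was far below its own group, on the side away from the knockout. Il5ra, the alpha chain of the interleukin 5 receptor, stood at 93.6, 106 and 43.8 CPM in RasG12V and at 169, 155 and 169 CPM in the knockout. Akap12, a scaffold for protein kinase A, stood at 12, 12.7 and 3.20 CPM against 21.3, 18.4 and 22.2 CPM. The log2 fold change with 10 libraries was 0.73 for Il5ra and 0.74 for Akap12 (edgeR adjusted p of 0.00156 and 5.39e-04), and with all 12 it was 1.02 and 1.16 (adjusted p of 0.694 and 0.796). Ppp2r2b, a regulatory subunit of protein phosphatase 2A, was instead high in replicate 3: 3.61, 3.72 and 6.63 CPM against 6.90, 7.54 and 7.21 CPM. It was called both without RasG12V replicate 3 (log2 fold change 0.98, adjusted p = 0.0167 in edgeR) and with 10 libraries (adjusted p = 6.82e-04). Nell2, Fgfbp1 (a secreted carrier of fibroblast growth factors), Mpp2 and Kbtbd11 had log2 fold changes of 0.75, 0.69, 0.72 and 0.74 in the fit of 10 libraries, and all their knockout libraries were above all RasG12V libraries.

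Of the genes with the lowest p over all 12 libraries, Xk stood at 1.75, 2.13 and 1.90 CPM in RasG12V and at 4.17, 3.63 and 4.02 CPM in the knockout, and Epb41l3, a membrane cytoskeleton protein, at 5.87, 5.28 and 5.18 CPM against 8.84, 9.25 and 8.58 CPM. In both, RasG12V replicate 3 lay with its group. Xk had a log2 fold change of 1.03 in either fit and Epb41l3 of 0.71 with all 12 libraries and 0.68 with 10 (edgeR adjusted p of 0.00760 and 0.0110 with 10). Palld, an actin-binding protein, and Vcl, vinculin, had the same tight pattern, with log2 fold changes of 0.35 and 0.29 with 10 libraries. Asb4 stood at 0.474, 0.491 and 0.995 CPM in RasG12V and at no more than 0.0814 CPM in the knockout, which is at or under the level of 3 counts, so its fold is not given.

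**Figure D2:**
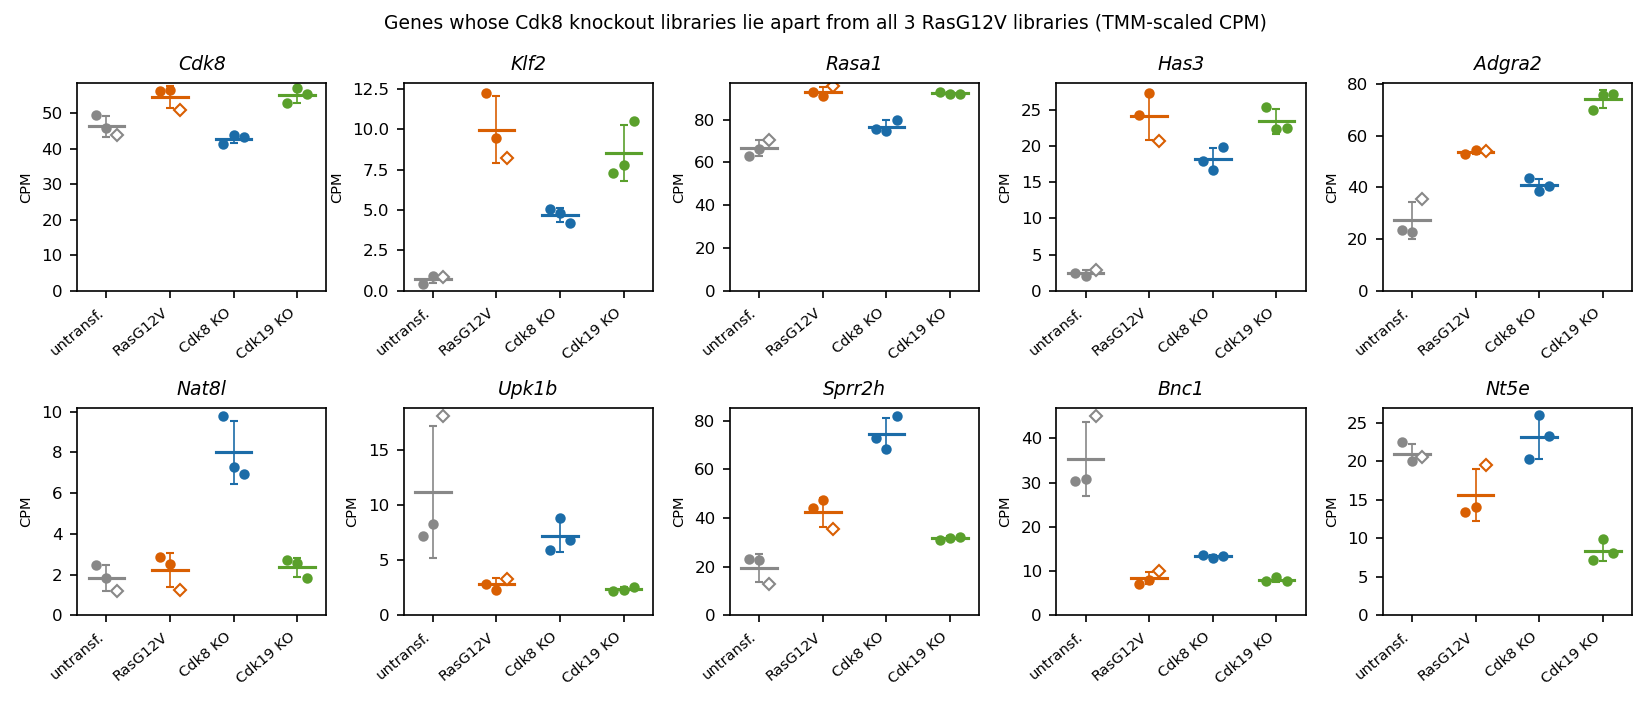
TMM-scaled CPM (vertical axes, from 0) of 10 genes in each library of the 4 groups; points are libraries, open diamonds are RasG12V replicate 3 and untransformed replicate 3, lines and bars are the mean and SD of 3 libraries. Each gene is shown because its 3 Cdk8 knockout points lie outside the 3 RasG12V points, with Has3 and Nt5e the closest.

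In the other 110 rises the groups overlapped once RasG12V replicate 3 was counted, as it lay within or beyond the knockout. Lgals4, galectin-4 of the gut epithelium, stood at 6.89, 7.24 and 54.2 CPM in RasG12V and at 12.8, 17.0 and 15.1 CPM in the knockout. Its knockout libraries were above replicates 1 and 2 and far below replicate 3, and the log2 difference was -0.62 (SE 0.59) with all 12 libraries and 1.10 (SE 0.11, adjusted p = 5.45e-05 in edgeR) with 10. Anxa13, an annexin of the intestine, stood at 145, 144 and 334 CPM against 215, 246 and 225 CPM, with 0.14 (SE 0.25) and 0.66 (SE 0.07, adjusted p = 7.88e-05). The untransformed cells held the highest level of both genes: 218 to 286 CPM for Lgals4 and 459 to 530 CPM for Anxa13.

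Il1rn, the interleukin 1 receptor antagonist, stood at 3.68, 3.48 and 12.4 CPM in RasG12V and at 9.48, 10.1 and 11.8 CPM in the knockout. Ddc, dopa decarboxylase, stood at 18.2, 17.3 and 46.8 CPM against 30.4, 35.8 and 37.9 CPM. Ugt1a7c, a glucuronosyltransferase, stood at 5.07, 4.99 and 11.9 CPM against 9.34, 10.5 and 10.4 CPM. In these 3 genes replicate 3 was the highest of the 6 libraries, and the fit of 10 libraries gave log2 fold changes of 1.55, 0.98 and 1.01 (edgeR adjusted p of 5.77e-04, 5.45e-05 and 7.36e-05). With all 12 libraries they were 0.67, 0.33 and 0.44, with standard errors of 0.49, 0.36 and 0.39. Mst1r, the receptor tyrosine kinase RON, Tmem151a, Calml4, Slc9a3r2, a scaffold of the sodium-proton exchanger, and Spon2 had log2 fold changes between 0.90 and 1.03 with 10 libraries and between -0.15 and 0.54 with all 12.

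The largest falls that were not apart from all RasG12V libraries had the mirror pattern. Ulbp1, a stress ligand of the NKG2D receptor, stood at 120, 124 and 56.2 CPM in RasG12V and at 95.2, 87.4 and 93.7 CPM in the knockout. Ccbe1, a secreted matrix protein, stood at 97.2, 98.0 and 44.9 CPM against 85.2, 65.9 and 71.7 CPM. Replicate 3 was below every knockout library in both, and leaving out the libraries that stand apart moved the log2 fold change from -0.12 to -0.41 for Ulbp1 and from -0.11 to -0.39 for Ccbe1 (edgeR adjusted p of 0.00416 and 0.0381). Cpeb4, an RNA-binding protein, Phip and Zbtb41 fell by 0.43, 0.42 and 0.39 on the log2 scale with 10 libraries.

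**Figure D3:**
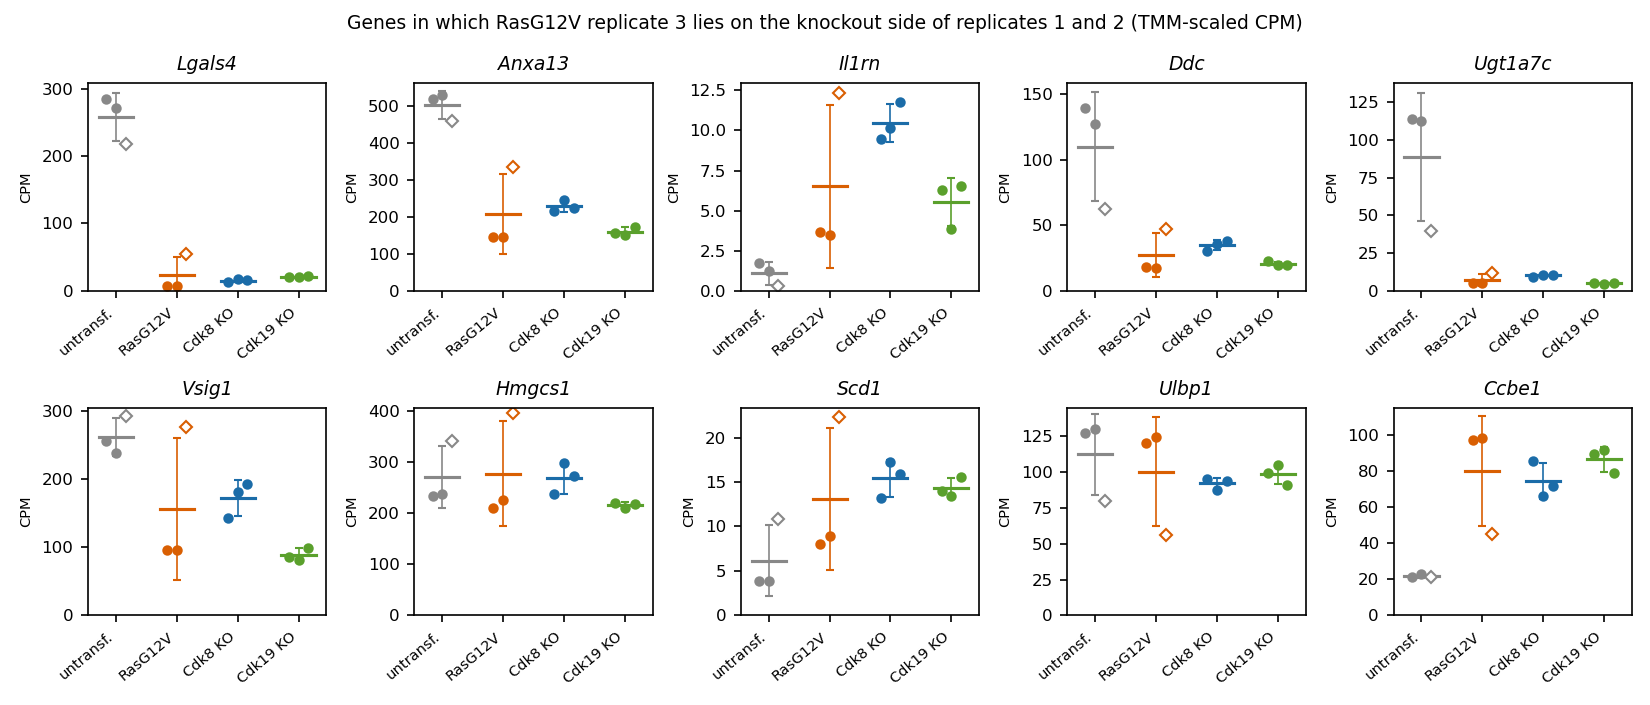
TMM-scaled CPM (vertical axes, from 0) of 10 genes in each library; points are libraries, open diamonds are RasG12V replicate 3 and untransformed replicate 3, lines and bars are the mean and SD of 3 libraries. Genes were chosen with knockout points apart from RasG12V replicates 1 and 2 and with replicate 3 on the knockout side. In Lgals4 replicate 3 stood at 54.2 CPM against 12.8 to 17.0 CPM in the knockout.

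Genes were next read by pathway, with the rate of all genes in the fit of 10 libraries (1.18% higher and 0.414% lower) as the background. All the lists were chosen with earlier results of these data known. The list of cholesterol and lipid synthesis had 5 of 36 members higher and 0 lower: Scd1, a fatty acid desaturase, and Mvd, Fdft1, Nsdhl and Hmgcs1, enzymes of the sterol pathway. In all, 32 of the 36 had a positive log2 fold change, against 51.4% of all genes, with a median of 0.18 against 0.01. Scd1 stood at 8.05, 8.96 and 22.3 CPM in RasG12V and at 13.2, 17.2 and 15.9 CPM in the knockout, with a log2 fold change of 0.87 (SE 0.12, adjusted p = 0.00117 in edgeR). Hmgcs1 stood at 210, 226 and 395 CPM against 237, 298 and 272 CPM, with 0.31 (SE 0.08, adjusted p = 0.0499). RasG12V replicate 3 was above all knockout libraries in all 5 genes. It lay a median of 0.27 on the log2 scale above replicates 1 and 2 over the list, and with all 12 libraries the list's median was 0.04, with 0 members called.

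Genes of gut and stomach epithelium, a list assembled with earlier results of these libraries known and so no independent evidence of direction, had 6 of 23 members higher and 0 lower. They were Lgals4, Vsig1, Anxa10, Lgals2, Cdx2 and Cdh17. Vsig1, an adhesion protein of gastric epithelium, stood at 95.3, 95.7 and 276 CPM in RasG12V and at 142, 180 and 192 CPM in the knockout. Lgals2, galectin-2, stood at 437, 460 and 1045 CPM against 601, 614 and 618 CPM. Replicate 3 exceeded the knockout in these genes and in Cdh17, an intestinal cadherin. Anxa10, an annexin of the stomach, and Cdx2, the intestinal homeobox factor, were instead apart from all 3 RasG12V libraries. Anxa10 stood at 25.2, 23.8 and 31.8 CPM against 36.5, 42.1 and 39.3 CPM, and Cdx2 at 26.3, 25.4 and 27.3 CPM against 35.7, 32.3 and 30.6 CPM. Their log2 fold changes with 10 libraries were 0.68 and 0.35 (edgeR adjusted p of 2.42e-04 and 0.0385). The list's median was 0.40 with 10 libraries and -0.15 with all 12, and replicate 3 lay a median of 0.62 above replicates 1 and 2, so the direction of the list turned with that library.

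Squamous and urothelial genes had 3 of 12 members higher and 0 lower. Besides Upk1b these were Psca, a surface antigen, at 56.3, 60.3 and 128 CPM in RasG12V and 80.9, 88.8 and 80.7 CPM in the knockout, and Anxa8, an annexin, at 97.6, 89.5 and 170 CPM against 114, 142 and 128 CPM. In Psca and Anxa8 replicate 3 was above the knockout, while in Upk1b it was below. The median of this list was 0.28 with 10 libraries and 0.03 with all 12. Integrin and adhesion genes had 3 of 30 higher, among them Itgb3 and Vcl, and 1 lower, Itgav. Vcl stood at 189, 195 and 191 CPM against 226, 223 and 252 CPM, apart from all RasG12V libraries. Itgav, an integrin alpha chain that pairs with Itgb3, stood at 267, 277 and 191 CPM against 216, 196 and 243 CPM, with replicate 3 below every knockout library. The mesenchymal list had 3 of 22 higher (Itgb3, S100a4 and Sparc) and 1 lower (Itgav).

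Lists of signalling had 1 or 2 members called by edgeR. Of 28 YAP and TEAD targets, Nt5e and F3, which encodes tissue factor, rose while 8 of the 28 had a positive log2 fold change and the median was -0.06. F3 stood at 104, 102 and 158 CPM in RasG12V and at 156, 168 and 182 CPM in the knockout, with replicate 3 within the knockout range, and it differed by 0.72 with 10 libraries (log2; SE 0.11, edgeR adjusted p = 0.00531). Of 17 genes of adenosine handling, Nt5e and Adora1, the A1 adenosine receptor, rose. Of 25 genes of NF-kB, cytokines and chemokines, Il33, an alarmin of epithelial nuclei, rose, at 385, 370 and 471 CPM against 460, 512 and 524 CPM. Of 21 interferon response genes, Ifi27 was called higher by edgeR, from 0.802 and 0.491 CPM in replicates 1 and 2 to 1.49, 1.90 and 1.61 CPM, while replicate 3 held 3.26 CPM. Irs2, an adaptor of the insulin and IGF receptors, rose and Htra1, a secreted protease, fell among 16 genes of the IGF axis. Irs2 was apart from all RasG12V libraries, at 15.3, 15.5 and 13.3 CPM against 22.1, 18.5 and 21 CPM. Egln3, an oxygen-sensing prolyl hydroxylase, was likewise apart, at 8.35, 8.38 and 7.29 CPM against 11.7, 14.7 and 12.4 CPM, and was 1 of 2 of 32 genes of glycolysis and hypoxia that rose.

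Ras output and the cell cycle had no calls by edgeR in the fit of 10 libraries: 0 of 21 genes of ERK output, 0 of 35 of S phase and E2F, 0 of 30 of G2 and mitosis, 0 of 31 p53 targets and 0 of 11 CDK inhibitors and D cyclins. Their medians lay between -0.03 and 0.04 on the log2 scale. Over all genes edgeR called 1.59% in that fit, and 18.9% had an unadjusted p under 0.05. For lists as short as those in this paragraph 0 calls is near that rate, so nothing is read from it. At an unadjusted p under 0.05 these lists held 3, 1, 1, 2 and 1 higher and 0, 3, 5, 2 and 0 lower genes in that order; DESeq2 called 1 higher in ERK output and 1 lower each in mitosis and p53, and limma-voom none. The median difference of RasG12V replicate 3 from replicates 1 and 2 was -0.99 on the log2 scale for S phase and -0.84 for mitosis, and with all 12 libraries the medians of these lists were 0.27 and 0.21. Of 27 MYC and nucleolar targets 0 were called by edgeR and 3 lower by DESeq2, with 9 lower at an unadjusted p under 0.05, while 2 of the 27 had a positive log2 fold change, with a median of -0.12. In the fit of all 12 libraries that median was 0.02. The lists of Wnt (23 genes), Notch (14), TGF-beta and SMAD (26), ATF4 and unfolded protein response (30), Nrf2 (27) and matrix proteases (28) also held 0 calls by edgeR, with 28 genes at an unadjusted p under 0.05 in higher and 6 in lower direction; DESeq2 called 6 of them higher and limma-voom 0. Among 23 immediate early genes, whose median was 0.05, edgeR called Klf2 lower and DESeq2 called 1 higher and 1 lower.

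**Figure D4:**
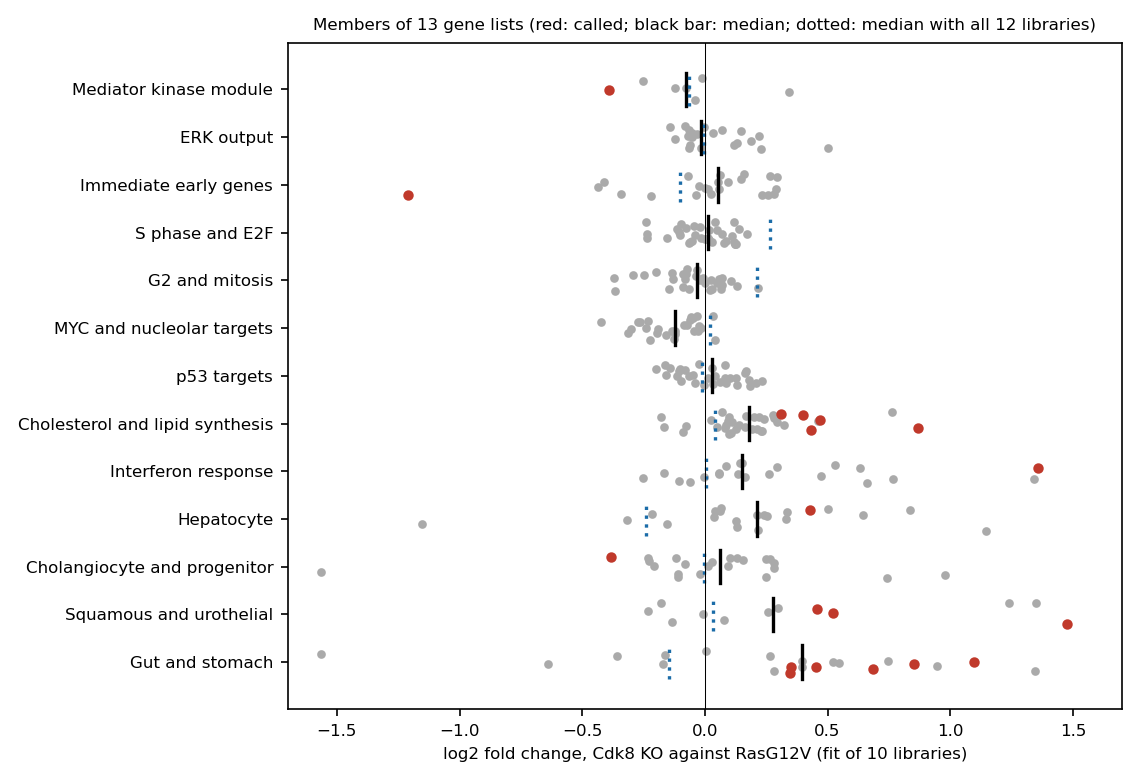
Log2 fold change of the Cdk8 knockout against RasG12V in the fit of 10 libraries (horizontal axis) for members of 13 lists; points are genes, red points pass an adjusted p of 0.05 in edgeR, black bars are list medians and dotted bars the medians with all 12 libraries. 4 members lie beyond the axis. The bars for gut and stomach stand at 0.40 and -0.15, and those for S phase at 0.01 and 0.27.

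The labelled cell type was checked against its markers. The biliary and progenitor keratins Krt19 (1675 to 2870 CPM over the 6 libraries) and Krt7 (168 to 281 CPM) and the hepatic factor Hnf4a (283 to 503 CPM) were expressed in both groups, while Alb reached no more than 0.0603 CPM and Epcam no more than 0.211 CPM. Afp, fetal alpha-fetoprotein, was called higher of 22 hepatocyte genes tested, at 14.7, 16 and 16.2 CPM in RasG12V and 19.4, 21.7 and 20.5 CPM in the knockout (log2 fold change 0.43, edgeR adjusted p = 0.0239 with 10 libraries). The median log2 fold change of the hepatocyte list was 0.21 with 10 libraries and -0.24 with all 12. RasG12V replicate 3 lay a median of 0.76 above replicates 1 and 2 over that list, so its direction turned with that library. Of 24 cholangiocyte and progenitor genes edgeR called Sox9, lower, and DESeq2 called 2 higher and 3 lower.

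Markers of other liver cells held 0 calls by edgeR in any of the 3 fits. With 10 libraries only 17 of them were tested, as the filter on low counts removed the rest. Of the 17, 4 were higher and 2 lower at an unadjusted p under 0.05, against 18.9% of all genes in either direction. DESeq2 called 1 lower, Tfrc. Over all genes edgeR called 1.59% in that fit, so 0 of 17 is near that rate and nothing is read from it. The summed level of 15 stellate cell and fibroblast markers was 2.08 to 2.45 CPM in RasG12V and 2.05 to 2.46 CPM in the knockout, and 13 endothelial markers summed to 2.37 to 3.10 and 2.56 to 3.36 CPM, with Kdr, Emcn and Cldn5 at 0 in all 6 libraries. The 14 macrophage and leukocyte markers summed to 33.8 to 60.6 and 40.2 to 47.1 CPM, most of it Cd14, with Adgre1, Clec4f, Tyrobp and Cd3e at 0. The 11 erythroid markers summed to 143 to 700 and 473 to 557 CPM, nearly all of it the transferrin receptor Tfrc, with the globins Hbb-bt, Hbb-bs, Hba-a1 and Hba-a2 at 0. The 10 mesothelial markers summed to 3328 to 4564 and 3736 to 4044 CPM, mostly Krt19 and Msln. Podxl (97.0 to 121 CPM) and Alcam (145 to 229 CPM) were also expressed. Wt1, Upk3b and Gpm6a reached no more than 0.0904, 0.204 and 0.0729 CPM. Lrrn4, Muc16 and Aldh1a2 reached no more than 0.531, 0.729 and 0.0814 CPM.

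The direct comparison with the Cdk19 knockout, which shares the Cdk8 knockout libraries but no RasG12V library, asks where the 2 knockouts differ. With all 12 libraries 11 genes were higher in the Cdk8 than in the Cdk19 knockout (0.077%) and 4 lower (0.028%), with 1027 (7.19%) at an unadjusted p under 0.05. Leaving out any 1 of the 6 knockout libraries left at most 5 higher and 0 lower. Nt5e stood at 20.3, 26.0 and 23.3 CPM in the Cdk8 knockout and at 7.23, 9.88 and 8.17 CPM in the Cdk19 knockout, with RasG12V between them. Its log2 difference was 1.46 (SE 0.16, adjusted p = 0.00622 in edgeR). Scel, sciellin of the cornified envelope, had the same order, with 46.1, 48.0 and 47.7 CPM against 29.2, 26.8 and 30.8 CPM, and a difference of 0.71 (SE 0.08, adjusted p = 0.00622). Sprr2h differed by 1.23 (SE 0.18, adjusted p = 0.0291) and Palld by 0.52 (SE 0.07, adjusted p = 0.0215).

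Adgra2 was among the 4 lower genes, at 43.6, 38.7 and 40.5 CPM in the Cdk8 knockout and 70.1, 75.9 and 76.4 CPM in the Cdk19 knockout (log2 difference -0.86, SE 0.14, adjusted p = 0.0446 in edgeR). RasG12V lay between them at 53 to 54.6 CPM. Without RasG12V replicate 3 and untransformed replicate 3, 521 genes were higher (3.59%) and 250 lower (1.72%), and in a fit of only the 6 knockout libraries 355 and 141. In the fit of 10 libraries Anxa10, Akap12, Il5ra, Nat8l, Upk1b and Cdh17 also stood higher in the Cdk8 knockout, by 1.46, 1.40, 0.90, 1.75, 1.62 and 0.67 on the log2 scale (edgeR adjusted p of 4.71e-10, 9.01e-09, 1.57e-05, 3.51e-06, 3.54e-06 and 2.88e-05). Klf2 and Cdk8 stood lower, by -0.87 and -0.36 (adjusted p of 0.00483 and 0.00112), and Rasa1 by -0.27 (adjusted p = 0.00636).

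Other genes called against RasG12V had no such difference between the knockouts. Fgfbp1 stood at 25.2, 29.1 and 26.3 CPM in the Cdk8 knockout and at 23.5, 29.6 and 24.3 CPM in the Cdk19 knockout, with a log2 difference of 0.06 (SE 0.09, adjusted p = 0.780 in edgeR, 10 libraries). Kbtbd11, Psca, Sparc, Irs2, Scd1 and Cpeb4 had differences of 0.03, -0.11, -0.02, 0.11, 0.11 and 0.05 (standard errors 0.13, 0.07, 0.06, 0.08, 0.10 and 0.07), none past the threshold. A p that misses the threshold does not show that the knockouts were alike.

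**Figure D5:**
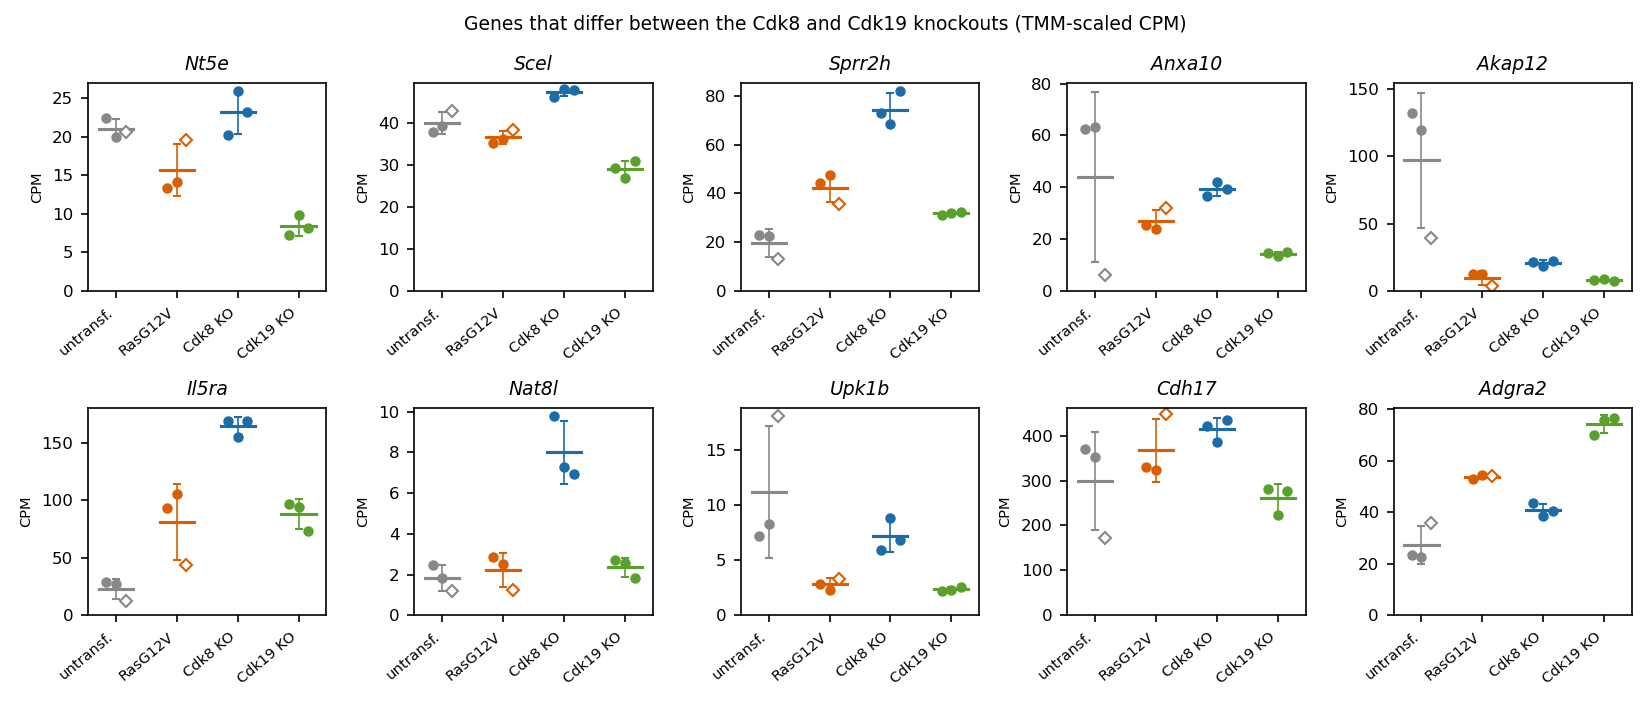
TMM-scaled CPM (vertical axes, from 0) of 10 genes in each library; points are libraries, open diamonds are RasG12V replicate 3 and untransformed replicate 3, lines and bars are the mean and SD of 3 libraries. Genes were chosen for a difference between the knockouts, so their Cdk8 and Cdk19 knockout points do not overlap, as for Nt5e at 20.3 to 26.0 CPM against 7.23 to 9.88 CPM.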

How the data were processed

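RNA was sequenced from 12 libraries of the BMEL line, 3 in each of 4 groups set by the titles. The deposited files hold read counts per gene, made by the authors with STAR 2.6.0a on GRCm38.p6 per the submitters' processing notes, with FastQC also named; the annotation release is not given in the sources used here. Reverse-strand counts were used, since reverse reads outnumbered forward ones by at least 24.7 times in each library. Symbols came from GENCODE M21, which matched 54079 of 54146 identifiers. Summary rows for unmapped, multimapping, unassigned and ambiguous reads were left out of library sizes; multimapping reads, 23.0% to 26.3% of each library, were not counted on genes, which affects near-identical copies.

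Counts were filtered with filterByExpr by group, scaled with TMM and tested with edgeR 4.0.16 (R 4.3.3, robust quasi-likelihood fit of all 4 groups), and p-values were adjusted by Benjamini and Hochberg's method over every gene in the fit, with 0.05 as threshold. The same fit was run without RasG12V replicate 3 and without RasG12V replicate 3 and untransformed replicate 3; fold changes are log2, and standard errors are the fold change divided by the root of F. DESeq2 1.42.0, limma 3.58.1 voom, other scalings, filters, unstranded counts, a replicate block and left-out libraries were alternatives. The script was tested on simulated counts. Named genes were the kinase module and Hras, the protein-coding genes with the 12 largest changes each way that were called with at least 5 CPM in the higher group, with and without separation from all RasG12V libraries, and list members with the smallest p; as the fit of all libraries gave no call, this rule was applied in the fit of 10 libraries after seeing the data. A few others (Xk, Epb41l3, Asb4, Palld, Scel) were named after their values were seen, and some results are not reported here. The comparison and the gene lists were chosen with earlier results of these data known. At this depth 3 counts correspond to 0.0814 to 0.123 CPM in the 6 libraries.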

Additional observations from a re-analysis of the deposited data

How the results depend on the processing

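With all 12 libraries the count of genes called between the Cdk8 knockout and RasG12V stayed at 0 in both directions under RLE and upper quartile scaling, a filter of 1 CPM, limma-voom, unstranded counts, without the untransformed group and with only the 6 libraries compared. It became 12 higher and 4 lower without a filter on low counts, 21 and 9 with DESeq2, and 171 and 60 without RasG12V replicate 3 and untransformed replicate 3. Leaving out 1 library at a time gave 0 to 3 higher, with 3 without RasG12V replicate 3, and 0 lower. With the replicate number as a block there was 1 higher and 0 lower; same-numbered RasG12V and knockout libraries had correlations of 0.25, -0.17 and 0.15 in their deviations, so the numbers were not taken to pair the libraries.

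In the fit of 10 libraries (171 higher, 60 lower; alternatives chosen after seeing the data) there were 536 and 260 without a filter, 310 and 160 with DESeq2, 110 higher with limma-voom, 81 and 30 with the replicate block, and 107 higher without the untransformed group. Leaving out 1 library gave 16 to 275 higher and 1 to 90 lower: 275 without Cdk8 knockout replicate 1, 60 and 17 without its replicate 2, and 82 without its replicate 3. Of the 71 named genes called, 23 lost the call under the block, 13 without the untransformed group and 12 with limma-voom. Between the knockouts (11 higher, 4 lower) there were 83 and 25 without a filter, 87 and 28 with DESeq2, 26 and 7 without the untransformed group, 355 and 141 with only the 6 knockout libraries, and 521 and 250 without both replicates 3; leaving out 1 library gave 0 to 5 higher and 0 lower. The cause was not tested.

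Log2 fold changes that changed sign from all 12 libraries were those of Hras (0.000643 with RLE, 0.00599 with upper quartile, 0.000535 with DESeq2, 0.0315 with limma-voom, 0.0112 unstranded, 0.0211 with the block), Lgals4 (0.0119 with limma-voom, 1.10 without both replicates 3), Calml4 (0.173, 0.961), Hmgcs1 (0.0119, 0.309, and 0.00406 with the block) and Lgals2 (0.0422, 0.452, and 0.00194 with the block). Leaving out 1 library moved them over -0.21 to 0.14 for Hras, -1.04 to 1.09 for Lgals4, -0.52 to 0.97 for Calml4, -0.20 to 0.31 for Hmgcs1 and -0.29 to 0.45 for Lgals2. The other genes that changed sign with 1 library left out ranged over -0.28 to 0.91 (Slc9a3r2), -0.20 to 0.90 (Spon2), -0.063 to 0.66 (Anxa13), -0.40 to 0.066 (Ulbp1; -0.41 without both replicates 3), -0.39 to 0.070 (Ccbe1), -0.29 to 1.36 (Ifi27), -0.019 to 0.87 (Scd1), -0.13 to 0.43 (Fdft1), -0.045 to 0.40 (Nsdhl), -0.11 to 0.85 (Vsig1), -0.16 to 0.52 (Psca), -0.057 to 0.46 (Anxa8) and -0.25 to 0.011 (Med13). From the fit of 10 libraries Ccnc changed sign (0.00954 with upper quartile, 0.00599 without a filter, 0.0559 with the block, -0.044 to 0.031 with 1 library left out), as did Med12 (-0.17 to 0.0078) and Cdk19 (-0.11 to 0.015) with 1 library left out.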
